A study of Homo sapiens with 6 samples.

Results

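The 10 genes described here are the NF-kB subunits NFKB1, NFKB2, RELA, RELB and REL, the IkB proteins NFKBIA, NFKBIB and NFKBIE, the atypical IkB protein BCL3 and the ubiquitin-editing enzyme TNFAIP3. They were chosen by name, as the canonical and non-canonical subunits of the pathway and its feedback inhibitors. The rule itself used no measured value, but earlier results of these data were known when the genes were chosen. They make up 10 of the 23228 genes in the deposited tables, and all 10 had enough reads to be tested. The measurements are mRNA levels from RNA-seq of HEC-1-A, an established human endometrial adenocarcinoma cell line, so all libraries share the genotype of 1 line. In 3 libraries the cells had received SMIP34, a small-molecule inhibitor of the oestrogen receptor coregulator PELP1, at 20 µM for 24 h, and in 3 control libraries they had received vehicle for the same time. The labels describe the controls only by their medium, and the vehicle is named in the methods of the study. The comparison asks how the mRNA of each pathway component differed after exposure to the inhibitor.

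NF-kB dimers are held in the cytoplasm by IkB proteins. In the canonical pathway the IKK complex, activated by receptors for TNF, interleukin 1 and microbial products, marks IkB proteins for degradation and so frees dimers of RELA, REL and the processed product of NFKB1. In the non-canonical pathway the kinase MAP3K14, stabilised after signalling by receptors such as LTBR, drives processing of the NFKB2 precursor, whose product pairs with RELB. Several genes of the pathway, subunits and inhibitors alike, are themselves known target genes of NF-kB. Endometrial epithelium is known to use this pathway to make chemokines and cytokines.

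The libraries held 19562711 to 22014835 counts on genes, and the first principal component of all tested genes, with 44.8% of the variance, placed the 3 SMIP34 libraries on 1 side and the 3 control libraries on the other. Control replicate 1 stood apart in having counts on 16881 genes, against 15965 to 16100 in the other 5 libraries, and values without it are given below. PELP1 mRNA was 139.3 ± 6.498 CPM (counts scaled to library size) in control and 155.9 ± 4.43 CPM in SMIP34 libraries (SD, n = 3 each), with 0.16 ± 0.035 (SE) as its log2 fold change (edgeR adjusted p = 0.000746). All 8 epithelial and endometrial carcinoma markers were detected, and their summed level was 4910 to 5031 CPM in control and 4743 to 4837 CPM in SMIP34 libraries. Of these, KRT8, KRT19, PAX8 and MUC1 were lower, with log2 fold changes of -0.12, -0.17, -0.07 and -0.32, and none was higher. The 11 stromal, endothelial and blood cell markers summed to 5.09 to 6.08 CPM in control and 6.18 to 7.35 CPM in SMIP34 libraries, with CD3E at 0 in every library and PTPRC at 1 count at most. Of the 3 that could be tested, COL1A1 was higher, at 2.96 ± 0.218 CPM in control and 4.19 ± 0.346 CPM in SMIP34 libraries (log2 fold change 0.50; edgeR adjusted p = 0.015), and none was lower. The part of these markers in the results was not tested. In bulk RNA such as this, fewer cells that make a transcript and less of it per cell cannot be told apart. Nothing in the labels says that the 3 libraries of a group came from separate cultures, so p-values measure the spread between these libraries.

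All 10 genes, chosen with earlier results of these data known, were higher in SMIP34 than in control libraries. Each passed the edgeR quasi-likelihood test at an adjusted p under 0.05 in the upward direction, where 17.4% of the 13408 genes tested did. None of the 10 passed in the downward direction, where 17.2% did, which makes 34.6% of genes in either direction. In all 10 the lowest SMIP34 library lay above the highest control library, as it did for 22.6% of all genes tested, and a further 21.9% were separate in the downward direction. Their median log2 fold change was 0.50, beside a median of -0.0022 over all genes, whose 25th and 75th percentiles were -0.12 and 0.12. Past a log2 fold change of 0.5 were 5 of the 10, namely TNFAIP3, NFKBIA, NFKB2, RELB and BCL3, where 1.44% of all genes were past both thresholds upward and 1.87% downward. BCL3 lay just inside that limit at 0.52 and REL just outside it at 0.48. RELB was at 0.48 without control replicate 3 and BCL3 at 0.48 without SMIP34 replicate 1, both then below the limit.

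**Figure D1:**
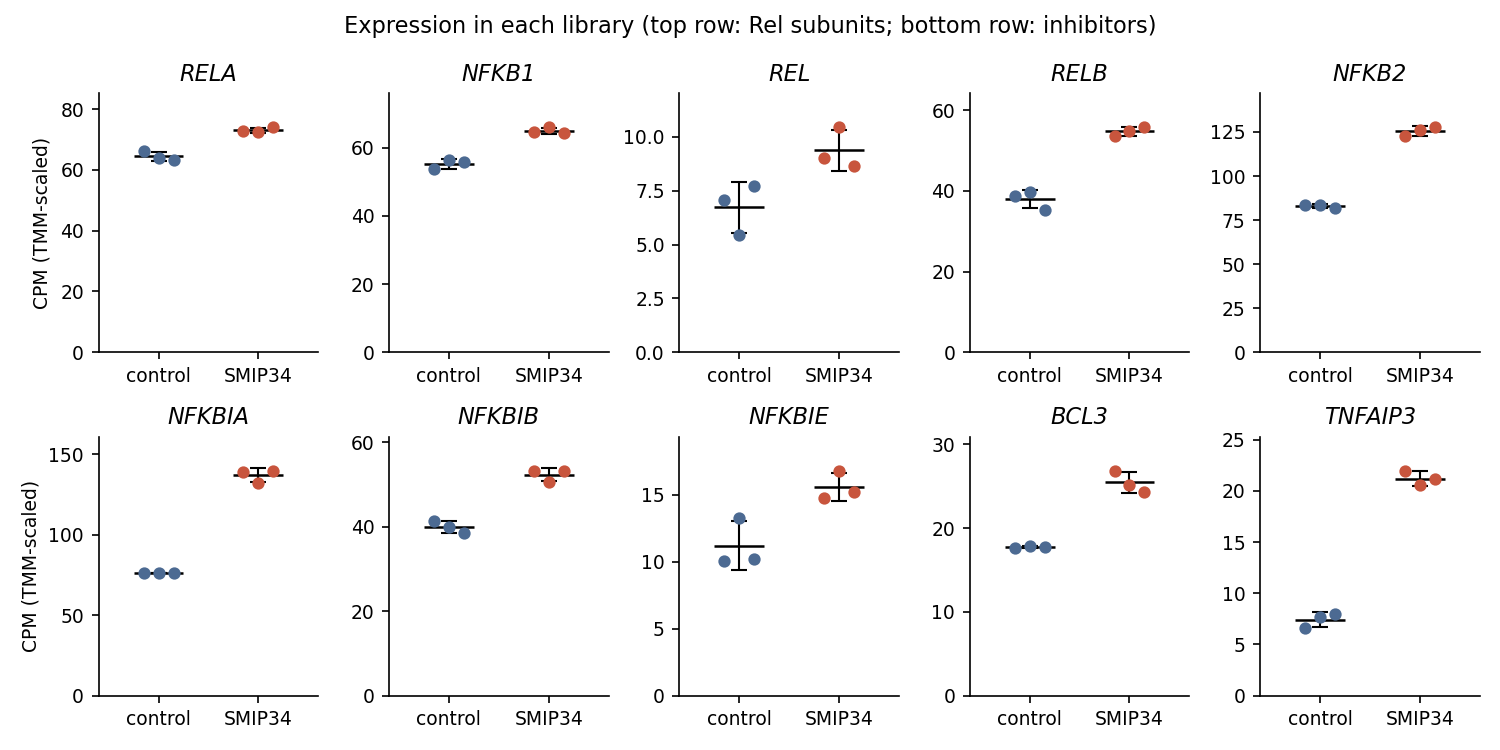
Levels in CPM of each of the 10 genes in the 3 control and 3 SMIP34 libraries, 1 point per library, with a bar at the group mean. In every panel the 3 SMIP34 points lie above the 3 control points, most widely for TNFAIP3 (7.44 against 21.2 CPM on average) and most narrowly in proportion for RELA (64.4 against 73.1 CPM).

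The promoters of some of these genes hold the letters that NF-kB dimers are known to bind, and they are shown as a description of sequence. Whether NF-kB had a part in the changes was not tested. The windows are the 250 bases before each listed transcription start, from RefSeq on GRCh38.p14, a later build than the hg19 on which reads were counted. RefSeq entries matched 8 of the 10 genes with 13 windows, and RELB and NFKBIE had no entry. Each window was searched on both strands for the 10-letter kB consensus, and matches that overlap on opposite strands were taken as 1 site. It was found in 6 of the 8 genes, in 7 of their 13 windows and at 10 distinct sites. A match was held by 9.96% of all 35116 windows from RefSeq, and 1.72% held at least 2. Of all 27305 gene symbols with windows, 11.8% had a match in any of them. RELA and BCL3 had no match, which says only that these letters are not in these windows. The windows of the 2 genes with the largest fold changes and of NFKB1 follow, 5′ to 3′ along the gene, with each match in capitals. NFKBIA lies on the minus strand at chr14:35404750-35404999, TNFAIP3 on the plus strand at chr6:137867009-137867258, and NFKB1 on the plus strand at chr4:102501109-102501358.
NFKBIA: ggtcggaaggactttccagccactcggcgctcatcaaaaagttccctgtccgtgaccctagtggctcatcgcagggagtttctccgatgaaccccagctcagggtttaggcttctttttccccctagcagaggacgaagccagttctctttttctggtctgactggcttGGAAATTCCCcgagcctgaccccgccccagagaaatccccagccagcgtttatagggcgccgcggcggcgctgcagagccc
TNFAIP3: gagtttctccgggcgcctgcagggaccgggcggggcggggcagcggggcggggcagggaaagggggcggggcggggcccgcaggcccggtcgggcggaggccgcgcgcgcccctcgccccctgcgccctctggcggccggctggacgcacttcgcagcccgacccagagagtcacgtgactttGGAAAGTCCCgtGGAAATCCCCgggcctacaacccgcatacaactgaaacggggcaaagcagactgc
NFKB1: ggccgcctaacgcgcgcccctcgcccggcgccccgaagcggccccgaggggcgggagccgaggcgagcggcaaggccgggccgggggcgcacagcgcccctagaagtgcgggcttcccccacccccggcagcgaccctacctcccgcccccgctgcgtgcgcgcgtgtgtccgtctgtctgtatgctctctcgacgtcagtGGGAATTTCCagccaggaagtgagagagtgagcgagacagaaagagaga
The match of NFKBIA began 81 bases before the start of transcription, those of TNFAIP3 began 67 and 55 bases before it, and that of NFKB1 began 49 bases before it. TNFAIP3, with 2 matches, had a log2 fold change of 1.51, and NFKBIA and NFKB1, with 1 each, had 0.85 and 0.23. NFKB2, with 2 sites before each of its later starts, was at 0.59. REL and NFKBIB, with 1 site each, were at 0.48 and 0.39. RELA and BCL3, with no match, were at 0.18 and 0.52. A link between matches and fold changes was not tested.

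The remaining matches are shown with the bases around them, since they lie before the starts of the non-canonical subunit NFKB2, the subunit REL and the inhibitor NFKBIB. Each line holds 30 bases, read along the plus strand, on which all 3 genes lie.
NFKB2 start 2, site 1: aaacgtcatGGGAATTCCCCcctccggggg
NFKB2 start 2, site 2: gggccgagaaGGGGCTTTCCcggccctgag
NFKB2 start 3, site 1: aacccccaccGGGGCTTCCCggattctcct
NFKB2 start 3, site 2: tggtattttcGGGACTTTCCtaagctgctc
REL: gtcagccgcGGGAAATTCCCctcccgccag
NFKBIB start 2: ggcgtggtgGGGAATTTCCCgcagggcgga
These stretches are at chr10:102394462-102394491, chr10:102394490-102394519, chr10:102395519-102395548 and chr10:102395674-102395703 for NFKB2, chr2:60881518-60881547 for REL and chr19:38899932-38899961 for NFKBIB. NFKB2 held 4 of the 10 sites, 2 before each of its later listed starts and none before its first. REL and NFKBIB held 1 site each. A match is a description of the letters and not evidence that a protein was bound there in these cells.

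**Figure D2:**
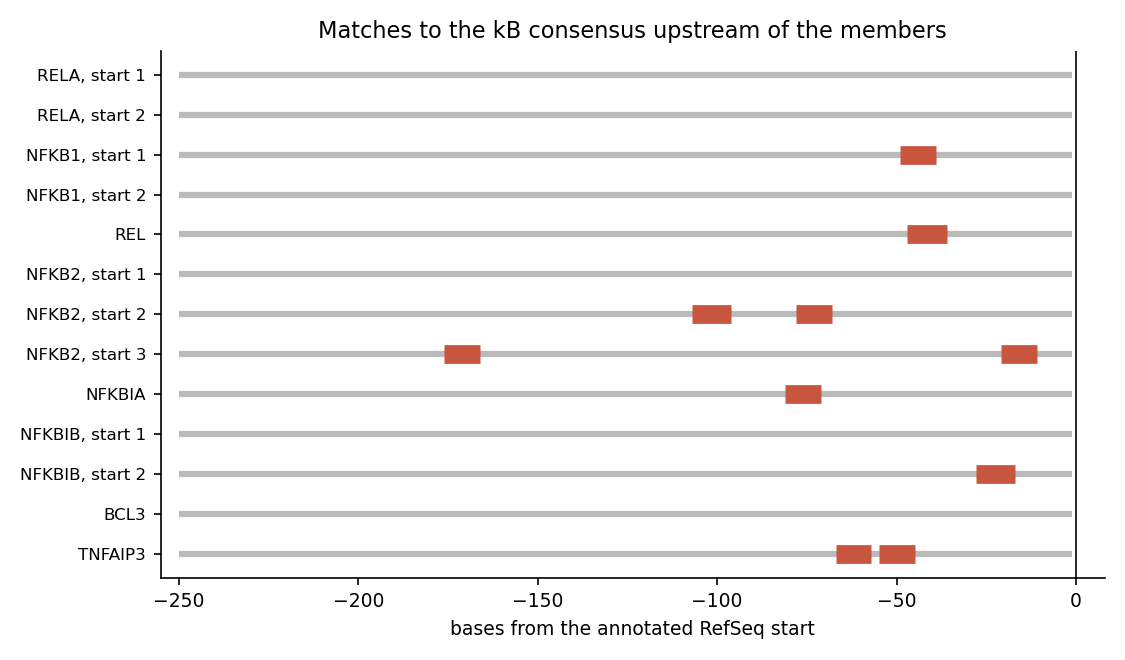
Position of each kB consensus match in the 250 bases before the listed starts of the 8 genes with RefSeq windows, 1 row per window; the horizontal axis is the distance to the start in bases. The matches lie between 176 bases (NFKB2, start 3) and 12 bases before a start, and 6 of the 13 windows have none.

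RELA and NFKB1 had the smallest fold changes of the 10, while REL, also a canonical subunit, was near the non-canonical RELB (0.48 and 0.53 in log2). RELA, which carries the main transactivation domain of the canonical dimer (chromosome 11, 65421067 to 65430443, minus strand, hg19), was at 66.1, 63.9 and 63.2 CPM in control replicates 1 to 3 and at 72.6, 72.5 and 74.0 CPM in SMIP34 replicates 1 to 3. The means were 64.4 ± 1.54 and 73.1 ± 0.832 CPM, a log2 fold change of 0.18 ± 0.039 (edgeR adjusted p = 0.000641). The 2 groups did not overlap, and the gene was 2083rd of 13408 in order of log2 fold change, from the highest down. NFKB1, the precursor of the other canonical partner (chromosome 4, 103422486 to 103538459, plus strand), was at 53.7, 56.5 and 55.7 CPM in control and at 64.8, 66.1 and 64.3 CPM in SMIP34 libraries. Its log2 fold change was 0.23 ± 0.041 (adjusted p = 6.99e-05). REL, the subunit best known from lymphocytes (chromosome 2, 61108752 to 61150178, plus strand), was the subunit with the fewest reads, 118 to 226 per library. It was at 7.06, 5.43 and 7.70 CPM in control and at 9.02, 10.4 and 8.64 CPM in SMIP34 libraries, so that its highest control and lowest SMIP34 library were less than 1 CPM apart. The log2 fold change was 0.48 ± 0.121 (adjusted p = 0.0028), and it ranged from 0.34 without control replicate 2 to 0.60 without control replicate 3.

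Both non-canonical subunits were past the fold limit. NFKB2 (chromosome 10, 104154229 to 104162281, plus strand), whose precursor also acts as an inhibitor until it is processed, was at 83.7, 83.7 and 81.9 CPM in control and at 122.5, 126.2 and 127.7 CPM in SMIP34 libraries. That is 83.1 ± 1.003 against 125.5 ± 2.67 CPM, a log2 fold change of 0.59 ± 0.035 (edgeR adjusted p = 3.11e-13). RELB, its usual partner (chromosome 19, 45504707 to 45541456, plus strand), was at 38.7, 39.8 and 35.4 CPM in control and at 53.7, 54.9 and 55.8 CPM in SMIP34 libraries. The log2 fold change was 0.53 ± 0.049 (adjusted p = 3.50e-09). In both genes the groups lay apart by more than the range within either.

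The subunits were also set against each other within each library. The ratio of NFKB2 to NFKB1, in length-scaled levels, was 1.90, 1.81 and 1.79 in control and 2.31, 2.33 and 2.42 in SMIP34 libraries, a 1.28-fold difference. The ratio of RELB to RELA was 0.664, 0.705 and 0.634 in control and 0.837, 0.859 and 0.854 in SMIP34 libraries, a 1.27-fold difference. Neither set of ratios overlapped between groups, and each gave the smallest p that 3 against 3 libraries allow in a 2-sided exact permutation test (p = 0.1; p = 0.133 adjusted over the 8 ratios computed), so this test cannot bring a ratio past 0.05. The ratio of the non-canonical subunits to each other, NFKB2 to RELB, was 1.43 to 1.57 in control and 1.55 to 1.56 in SMIP34 libraries, and the groups overlapped (exact permutation p = 0.4; adjusted p = 0.4). Its log2 difference of 0.06 was 0.03 without control replicate 2 and 0.10 without control replicate 3. The ratio of REL to RELA also overlapped, at 0.0844 to 0.121 against 0.116 to 0.143 (exact permutation p = 0.2; adjusted p = 0.229), and its log2 difference of 0.31 became 0.17 without control replicate 2.

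**Figure D3:**
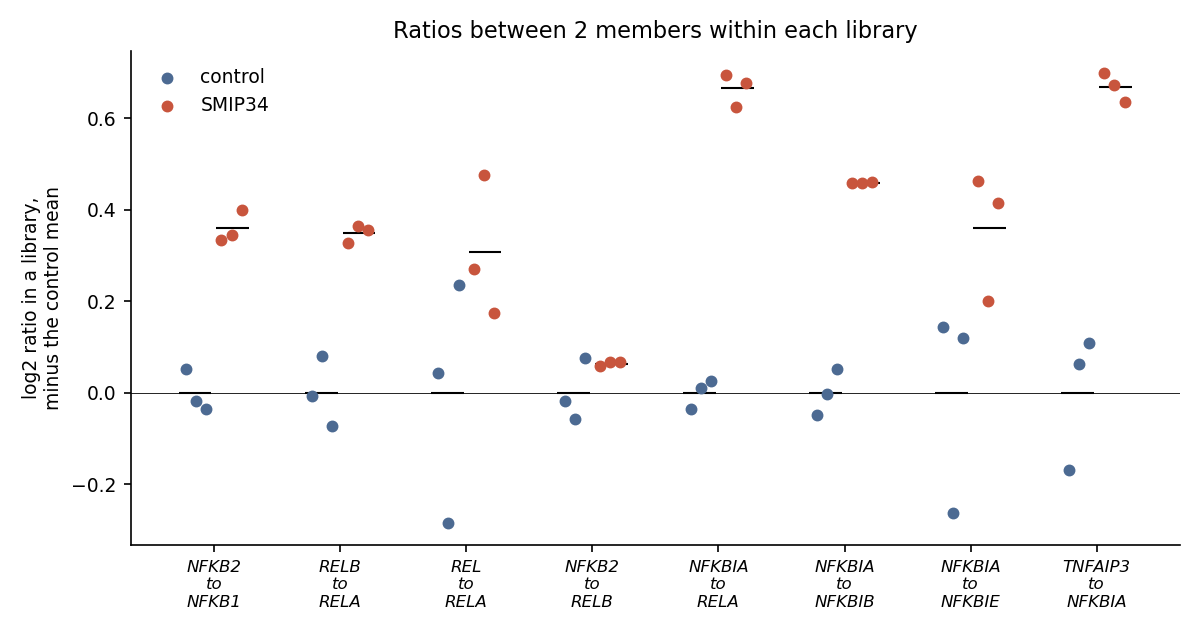
The 8 ratios of length-scaled levels between members, 1 point per library on a log2 axis, control beside SMIP34. The groups are separate in 6 ratios and overlap in NFKB2 to RELB and in REL to RELA.

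The mRNAs of all 3 classical IkB proteins were higher in SMIP34 libraries, that of NFKBIA most and alone past the fold limit. NFKBIA (chromosome 14, 35870716 to 35873960, minus strand), the IkB protein that is resynthesised to end a canonical response and whose promoter is printed above, was at 76.3, 76.2 and 76.1 CPM in control and at 139.3, 132.4 and 139.8 CPM in SMIP34 libraries. The mean was 76.2 ± 0.0899 CPM in control and 137.2 ± 4.11 CPM with SMIP34, and the log2 fold change was 0.85 ± 0.035 (edgeR adjusted p = 2.65e-16). The control libraries lay within 1 CPM of each other, and the gene was 90th of 13408 in the same order. NFKBIB (chromosome 19, 39390340 to 39399534, plus strand), a relative less tied to feedback, was at 41.5, 39.96 and 38.5 CPM in control and at 53.2, 50.6 and 53.3 CPM in SMIP34 libraries. Its log2 fold change was 0.39 ± 0.047 (adjusted p = 3.38e-07). NFKBIE (chromosome 6, 44225903 to 44233525, minus strand), another classical IkB protein, was at 10.0, 13.3 and 10.2 CPM in control and at 14.7, 16.8 and 15.2 CPM in SMIP34 libraries. Control replicate 2 was the high control library, and the log2 fold change of 0.47 ± 0.097 (adjusted p = 0.000406) became 0.62 without it and 0.40 without control replicate 1.

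The ratio of NFKBIA to NFKBIB was 2.76 to 2.96 in control and 3.92 to 3.93 in SMIP34 libraries, a 1.37-fold difference with no overlap (2-sided exact permutation p = 0.1; adjusted p = 0.133). That of NFKBIA to NFKBIE was 9.44 to 12.5 in control and 13 to 15.6 in SMIP34 libraries (exact permutation p = 0.1; adjusted p = 0.133), and its log2 difference of 0.36 became 0.23 without control replicate 2. NFKBIA was also higher relative to the subunit it holds back. Its ratio to RELA was 1.90 to 1.98 in control and 3.00 to 3.15 in SMIP34 libraries, a 1.59-fold difference with the same p-values.

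TNFAIP3, also called A20, and BCL3 stand for 2 other kinds of regulator. TNFAIP3 (chromosome 6, 138188581 to 138204449, plus strand) edits ubiquitin chains on signalling proteins upstream of IKK and so limits the canonical pathway. It was at 6.59, 7.73 and 7.99 CPM in control, or 128 to 168 counts, and at 21.97, 20.5 and 21.1 CPM in SMIP34 libraries, or 444 to 482 counts. Its mean of 7.44 ± 0.741 CPM in control stood against 21.2 ± 0.721 CPM, and its log2 fold change was 1.51 ± 0.087 (edgeR adjusted p = 2.66e-13). It was 27th of 13408 in that order, and its ratio to NFKBIA was itself 1.59-fold higher in SMIP34 libraries, at 0.0534 to 0.0558 against 0.0306 to 0.0371 (2-sided exact permutation p = 0.1; adjusted p = 0.133). BCL3 (chromosome 19, 45251978 to 45263301, plus strand), a nuclear IkB protein that joins homodimers of the NFKB1 and NFKB2 products on DNA and can activate as well as repress, was at 17.6, 17.9 and 17.7 CPM in control. It was at 26.8, 25.1 and 24.4 CPM in SMIP34 libraries, a log2 fold change of 0.52 ± 0.066 (adjusted p = 7.09e-07).

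Per kilobase of exon, which allows genes to be compared with each other, NFKBIA had the highest level of the 10 in both groups, at 48.6 CPM per kb in control and 87.5 CPM per kb in SMIP34 libraries. The control order was then RELA (24.99), NFKB2 (24.8), NFKBIB (17.0), RELB (16.7), NFKB1 (13.5), BCL3 (9.52), NFKBIE (4.33), REL (2.60) and TNFAIP3 (1.68), all in CPM per kb. In that order RELA and NFKB2 overlapped in their libraries, as did NFKBIB and RELB, and the other neighbours did not. In SMIP34 libraries NFKB2 stood at 37.5 and RELA at 28.3 CPM per kb, RELB at 24.1 and NFKBIB at 22.3 CPM per kb, and no neighbours overlapped. TNFAIP3, the lowest in control, stood at 4.79 CPM per kb in SMIP34 libraries, above REL at 3.62 CPM per kb.

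**Figure D4:**
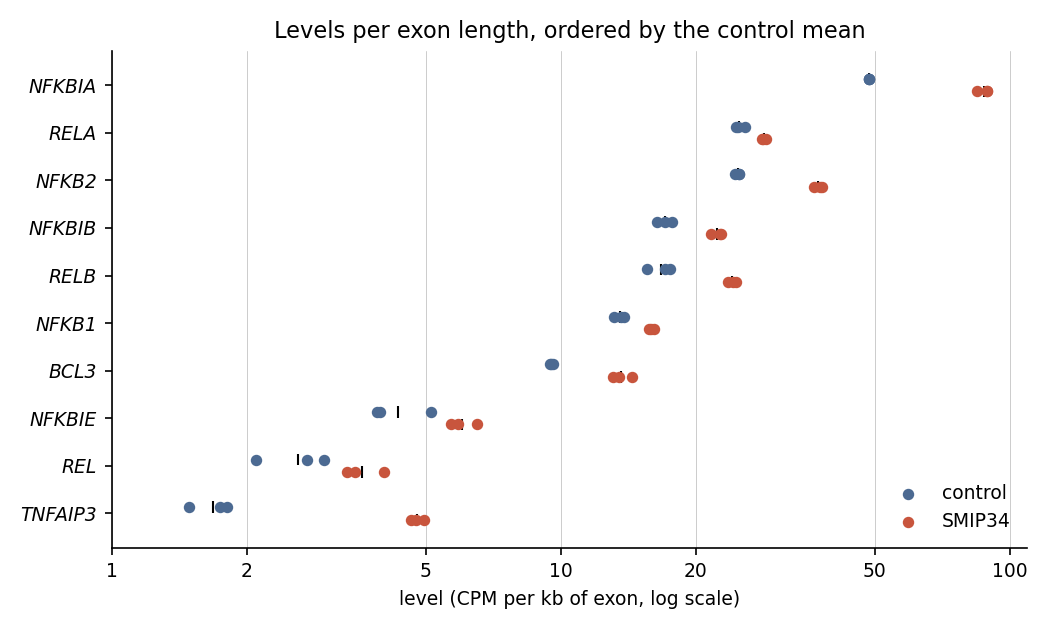
Levels in CPM per kilobase of exon on a log axis for the 10 genes, 1 point per library, control and SMIP34 side by side. NFKBIA is highest in both groups (48.6 and 87.5 CPM per kb); RELA and NFKB2 overlap in control and are apart in SMIP34 libraries.

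As shares of the summed level of the 5 subunits, RELA held 30.2% ± 0.454 in control and 25.9% ± 0.327 in SMIP34 libraries and NFKB1 16.4% ± 0.569 and 14.6% ± 0.258, with no overlap between groups. NFKB2 went from 30% ± 0.129 to 34.2% ± 0.279 and RELB from 20.2% ± 0.944 to 22% ± 0.168, again without overlap, and the share of REL overlapped (2.52% to 3.66% against 3.02% to 3.66%). Among the 5 inhibitors NFKBIA went from 59.9% ± 0.676 to 65.2% ± 0.563 and TNFAIP3 from 2.07% ± 0.212 to 3.56% ± 0.0590. NFKBIB went from 21% ± 0.686 to 16.6% ± 0.120, BCL3 from 11.7% ± 0.102 to 10.2% ± 0.473, and the share of NFKBIE overlapped. The summed level of the subunits was 82.6 ± 1.30 in control and 109.5 ± 1.51 CPM per kb in SMIP34 libraries, and that of the inhibitors 81.2 ± 0.933 and 134.3 ± 3.17 CPM per kb. The inhibitors, with BCL3 and TNFAIP3 counted among them, thus amounted to 98.3% ± 0.948 of the subunits in control and 122.7% ± 4.09 in SMIP34 libraries. NFKB1 and NFKB2 were counted as subunits only, so this percentage does not measure how much subunit is held back. These shares describe mRNA and were not tested one by one. RELA, NFKB1, NFKBIB and BCL3 had a lower share in SMIP34 libraries although their own levels were higher there.

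Counted as well were 73 other genes of the pathway, in 6 lists also chosen with earlier results of these data known. Of the 59 that could be tested, 27 passed an adjusted p under 0.05 upward (45.8%) and 3 downward (5.08%), against 17.4% and 17.2% of all genes tested, and their median log2 fold change was 0.14. Of those 30 genes, 19 were called in every fit that tested them, 17 of these in all 20 fits. The calls of TRAF6, IKBKB, MAP3K7, TBK1, MAP3K14, BIRC2, RNF11, NFKBID and ANKRD42 were lost without 1 or another library. Of 13 tested ligands, receptors and adaptors of the canonical pathway, IRAK2, TRAF2 and TRAF6 were higher (23.1%) and IRAK1 was lower (7.69%), with a median of 0.10. IRAK2, a kinase of the interleukin 1 receptor complex, averaged 8.44 ± 0.811 CPM in control and 11.3 ± 0.836 CPM in SMIP34 libraries (log2 fold change 0.43). IL1A had the highest log2 fold change of the list, 0.66, and did not pass (adjusted p = 0.117). It was at 0.35 without control replicate 1, then below IRAK2 at 0.51, and at 0.99 without control replicate 3. IL1R1 had the lowest, -0.16 (adjusted p = 0.0752). TNF, IL1B and TNFRSF1B had too few reads to be tested. TNF, like LTA, LTB and NFKBIL1 below, lies in a stretch of chromosome 6 that the assembly holds in several alternative copies, so its counts are uncertain.

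Of the 11 genes of the IKK complex and the kinases above it, MAP3K8, TAB2, CHUK, TBK1 and MAP3K7 were higher (45.5%) and IKBKB was lower (9.09%), with a median of 0.13. MAP3K8, also called TPL2, a kinase held inactive by the NFKB1 precursor, was the 1 past the fold limit, at 7.57, 8.002 and 7.94 CPM in control and 13.1, 12.7 and 14.1 CPM in SMIP34 libraries (log2 fold change 0.76 ± 0.094; edgeR adjusted p = 4.48e-07). The catalytic subunits CHUK (0.19) and IKBKB (-0.16) had log2 fold changes of opposite sign. Of the 8 non-canonical pathway genes tested, BIRC3, MAP3K14 and BIRC2 were higher (37.5%) and LTBR was lower (12.5%), with a median of 0.16. BIRC3, a ubiquitin ligase that keeps MAP3K14 low in resting cells, was at 46.7, 46.3 and 47.6 CPM in control and at 97.6, 95.6 and 96.0 CPM in SMIP34 libraries (log2 fold change 1.04 ± 0.039; adjusted p = 3.51e-17). Its relative BIRC2 had a log2 fold change of 0.13. LTBR, a receptor of this pathway, fell, with 99.8 ± 1.27 CPM in control and 84.8 ± 2.02 CPM in SMIP34 libraries (log2 fold change -0.24; adjusted p = 9.80e-06). The ligands LTA, LTB, TNFSF12, TNFSF11 and TNFSF13B had too few reads to be tested.

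Of 11 tested partners of TNFAIP3 and genes of the linear ubiquitin machinery, 5 were higher (CYLD, OTUD7B, TNIP1, TAX1BP1 and RNF11), or 45.5%, and none lower, with log2 fold changes of 0.28 at most and a median of 0.09. CYLD, a deubiquitinase, had that value of 0.28, but with length and GC offsets it was at 0.14, below TNIP1 at 0.23. SHARPIN, of the linear ubiquitin ligase, was the lowest at -0.10 (edgeR adjusted p = 0.132). Of 8 genes listed as other IkB proteins and further regulators of the pathway, NFKBID, NFKBIZ, NKIRAS1 and ANKRD42 were higher (50%). None was lower, and the median was 0.17. NFKBIZ, a nuclear relative of BCL3, averaged 33.1 ± 1.90 CPM in control and 43.4 ± 1.19 CPM in SMIP34 libraries (log2 fold change 0.39 ± 0.052). NFKBIL1, whose counts are uncertain, was at -0.51 (adjusted p = 0.0754), and at -0.80 without control replicate 2 and -0.29 without control replicate 3.

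Chemokine, cytokine and adhesion genes that NF-kB is known to induce had the highest median log2 fold change of the lists described, 0.95. Of 8 tested, 7 were higher (87.5%) and none lower, 6 of them past the fold limit. IL8 (the older symbol of CXCL8), a neutrophil chemokine, was at 1.96, 1.75 and 1.11 CPM in control and at 8.16, 7.26 and 7.58 CPM in SMIP34 libraries (log2 fold change 2.26 ± 0.169; edgeR adjusted p = 5.96e-11). CCL20, which attracts lymphocytes and dendritic cells, averaged 23.2 ± 1.29 CPM in control and 54.1 ± 1.16 CPM in SMIP34 libraries (log2 fold change 1.22 ± 0.053). CXCL3 (1.70), CXCL1 (1.10), CSF1 (0.80) and ICAM1 (0.51) were also past the fold limit. LIF, a cytokine of the receptive endometrium, had the lowest log2 fold change, -0.04 (adjusted p = 0.371). CXCL2, CXCL10, CCL2, IL6 and VCAM1 had too few reads to be tested.

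**Figure D5:**
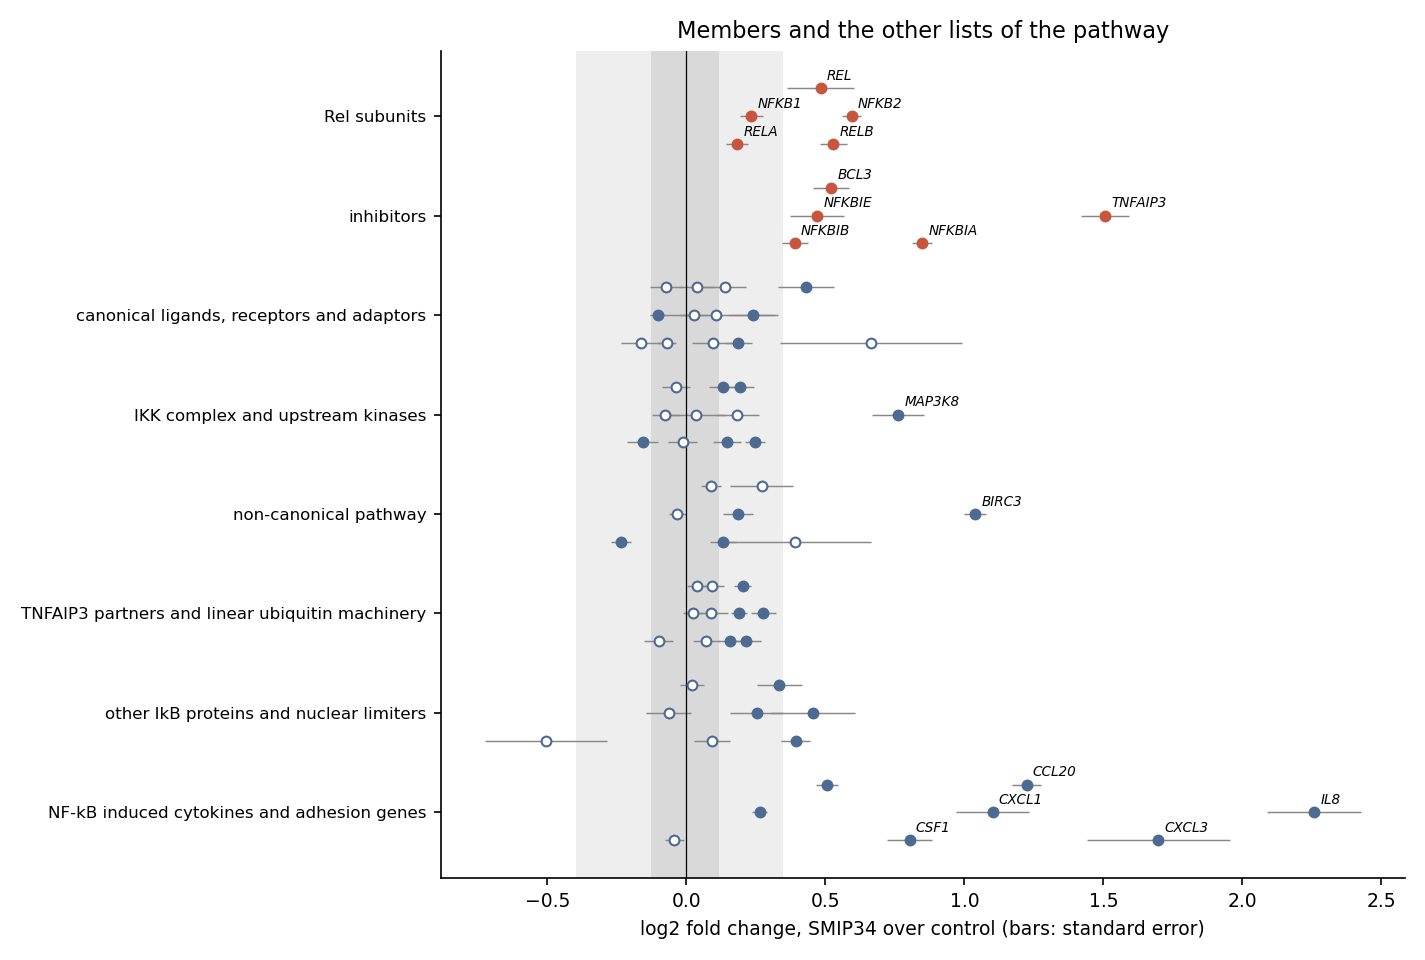
Log2 fold change, SMIP34 over control, of the 10 members (red) and of the tested genes of 6 other lists (blue), with standard errors; filled points passed an adjusted p under 0.05, and the grey bands hold the middle 50% and 90% of all genes tested. Members lie from 0.18 (RELA) to 1.51 (TNFAIP3), kinases and adaptors mostly within the bands, and the induced cytokine list reaches 2.26 (IL8).

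The genes nearest to NFKBIA over the 6 libraries were CSF1 (0.0568), PPP1R15A (0.0592) and HSPH1 (0.0628). The measure was the root mean square difference of log2 CPM centred on the control mean, among 10900 genes of at least 5 CPM. With 2 separate groups it depends mainly on the fold change, which was 0.80, 0.93 and 0.84 in log2 for these genes. Whether they are regulated together was not tested. PPP1R15A, a phosphatase subunit of the integrated stress response, averaged 131.5 CPM in control and 249.7 CPM in SMIP34 libraries, and HSPH1, a chaperone of the heat shock family, at 32.0 and 57.2 CPM. Those most like NFKB2 were KDM6B (0.0419), a histone demethylase, TIPARP (0.0460), an ADP-ribosyltransferase, and IFIT1 (0.0481), an interferon-induced gene. KDM6B averaged 31.9 CPM in control and 47.7 CPM in SMIP34 libraries.

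The fold changes of the members did not depend on 1 library or setting for their call. Each of the 10 stayed past an adjusted p of 0.05 in all 20 fits. REL came nearest to that limit, at an edgeR adjusted p of 0.0395 without control replicate 2. Without control replicate 1, which stood apart, the log2 fold changes were 1.43 for TNFAIP3, 0.85 for NFKBIA, 0.60 for NFKB2, 0.54 for RELB, 0.52 for BCL3, 0.52 for REL, 0.40 for NFKBIE, 0.42 for NFKBIB, 0.22 for NFKB1 and 0.20 for RELA. Longer genes had higher fold changes in these libraries. When all tested genes were divided by exon length into 10 groups of about equal size, group 1 (shortest) had a median of -0.10 and group 10 (longest) a median of 0.12, and the members fell into groups 2 to 8. NFKBIA, with 1567 bases of exon, was in group 2, where the median was -0.07, and TNFAIP3, with 4432 bases, was in group 8, where it was 0.04. RELA, the smallest change of the 10, had its lowest log2 fold change over the fits at 0.17 and its highest at 0.23.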

How the data were processed

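RNA was taken from HEC-1-A cells, 3 libraries with SMIP34 and 3 with vehicle, grouped by their labels. The values deposited by the authors are estimated counts per gene, 1 table per library. Per the file headers they come from featureCounts 1.5.0-p1, run over exons of UCSC hg19 genes on the reverse strand, with a minimum mapping quality of 2 and with multi-mapping or overlapping reads counted as fractions. The submitters' processing notes name bcl2fastq, HISAT2, SAMtools and hg19, whereas the methods of the study name tophat2 and HTSeq. The labels name 2 library kits without saying which library used which. Of the 60 values of the 10 genes 6 were not whole, and between 6.31% and 7.43% of the values of a library.

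Counts were rounded and tested with edgeR 4.0.16 (quasi-likelihood, TMM scaling, filterByExpr; R 4.3.3), leaving 13408 genes, over all of which p-values were adjusted by Benjamini-Hochberg. The study's methods used DESeq2 with a log2 fold change over 0.5 and an adjusted p under 0.05, and those thresholds are used here. CPM were scaled by TMM, which varied from 0.988 to 1.01. Levels per kilobase divide CPM by the exon length in the files. Ratios between members used log2 of those levels and a 2-sided exact permutation test over libraries. Log2 CPM for the nearest patterns had a prior count of 2.

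Alternatives were DESeq2 1.42.0, limma voom 3.58.1, the older edgeR quasi-likelihood fit, 3 scalings, 2 filters, unrounded counts, offsets for exon length, a replicate block and leaving out each library. Offsets for GC content were added after seeing the data. Promoter sequences came from RefSeq (GRCh38.p14).

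The 10 members and all gene lists were chosen with earlier results of these data known. Genes named were the members, PELP1, the highest and lowest tested gene of each pathway list and every gene of those lists past both thresholds, plus the 3 genes nearest in pattern to NFKBIA and to NFKB2. Other listed genes are named where a count was small and were chosen after their values were seen. Low counts limit the precision of REL, NFKBIE and TNFAIP3 most.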

Additional observations from a re-analysis of the deposited data

How the results depend on the processing

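All 10 members kept their direction and an adjusted p under 0.05 in each of the 20 fits, and 5 or 6 of them were past the fold limit. Which 5 or 6 varied, since RELB and BCL3 could fall below it and REL and NFKBIE could rise above it. The deviations of libraries with the same number in both groups had correlations of -0.028, 0.0334 and -0.0111. Between libraries with different numbers the correlations ran from -0.0254 to 0.0362. Such values cannot show whether libraries of the same number were handled together. The replicate block, which treats them as paired, gave 10 members higher and 5 past both thresholds. It lost the calls of MAP3K7 (adjusted p = 0.0571) and ANKRD42 (adjusted p = 0.0502), gained that of NFKBIL1 (adjusted p = 0.0335) and changed no other call among the genes named. The number of other pathway genes lower was 3 and became 6 with length offsets and 6 with length and GC offsets, and 2 to 3 when 1 library was left out, while the number higher, 27, ran from 21 to 31 over all alternatives. Genes past both thresholds over the whole table numbered 444, and 201 with a filter of at least 5 CPM on average, which also left 10910 genes to test. Among the named pathway genes no direction reversed, but 57 of their values lost a call and 8 gained one; the cause was not tested. Calls that ended when 1 library was left out are given with the edgeR adjusted p they then had. Without SMIP34 replicate 1, the calls of IKBKB (0.0576), MAP3K7 (0.151), RNF11 (0.0531) and ANKRD42 (0.0973) ended. Without SMIP34 replicate 2, the calls of TRAF6 (0.183), IKBKB (0.199), MAP3K7 (0.185), TBK1 (0.0734) and BIRC2 (0.0886) ended. Without SMIP34 replicate 3, the calls of TRAF6 (0.0532), TBK1 (0.144), MAP3K14 (0.0605), BIRC2 (0.107), NFKBID (0.0795) and ANKRD42 (0.168) ended. Without control replicate 1, the calls of TRAF6 (0.0526), IKBKB (0.0752), MAP3K7 (0.163), BIRC2 (0.144), NFKBID (0.121) and ANKRD42 (0.0547) ended. Without control replicate 2, the calls of IKBKB (0.0946), MAP3K7 (0.118), TBK1 (0.159), BIRC2 (0.0893) and ANKRD42 (0.0675) ended. Without control replicate 3, the calls of TRAF6 (0.187) and ANKRD42 (0.119) ended. IL1A passed without control replicate 3 (adjusted p = 0.0442) and NFKBIL1 without control replicate 2 (adjusted p = 0.00237). DESeq2 did not call TRAF6 (adjusted p = 0.0938), IKBKB (0.0963), MAP3K7 (0.113), TBK1 (0.0822), BIRC2 (0.0767), NFKBID (0.0536) or ANKRD42 (0.111). With GC offsets the calls of IRAK1 (log2 fold change -0.06, adjusted p = 0.0636), CHUK (0.0501), TRAF6 (0.095), IKBKB (0.0569), MAP3K7 (0.119), TBK1 (0.206), BIRC2 (0.281) and ANKRD42 (0.0815) ended. Length offsets ended those of TRAF6 (0.228) and BIRC2 (0.0538), and length and GC offsets together those of TRAF6 (0.344), MAP3K7 (0.0865), TBK1 (0.0875) and BIRC2 (0.201). Under these offsets IL1R1 passed, at an edgeR adjusted p of 0.0242 with length, 0.028 with GC and 0.0113 with both. NFKBIL1 also passed, at 0.019 with length and 0.0301 with both. Upper quartile scaling ended the calls of MAP3K7 (0.074), BIRC2 (0.0502) and ANKRD42 (0.0509). Scaling by library size only ended that of IKBKB (0.0592). The older quasi-likelihood fit (0.0577) and the fit without a filter on low counts (0.0572) ended that of MAP3K7. Read depth limits REL most, with 118 counts in its lowest library.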
